A study of Mus musculus with 101 samples.

Results

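Met, the receptor of hepatocyte growth factor, lies on mouse chromosome 6 among genes that are often gained or lost with it. Met and 9 neighbours were followed through the copy-number profiles of 98 mammary tumours and 3 spleens. The 10 genes were picked by symbol out of 43513 in the deposited tables, and all 10 were measured. They were picked because gain of Met had already been seen in these tumours, so the levels of KB1(L1363P)P and KP, the 2 genotypes with that gain, are set beside each other and beside those of the other genotypes as a description, without a test. Tests are given for histology and percent of epithelium within these 2 genotypes, and between the 2 genotypes without the gain, KB1P and KB2P.

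A receptor tyrosine kinase such as Met is activated when its ligand brings receptor molecules together, and the activated receptor signals through adaptor proteins to the Ras and phosphatidylinositol 3-kinase pathways. In the mammary gland its ligand comes mainly from stromal cells, while the receptor sits on epithelial cells. Amplification of a receptor gene is a known route to signalling that depends less on ligand, and an amplified stretch usually carries neighbouring genes as passengers.

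The study compared tumours of a Brca1 coiled-coil variant with those of other models of hereditary breast cancer. In the usual naming of these models the letter K stands for a Cre recombinase driven by the keratin 14 promoter, which is active in epithelial cells, and P for floxed Trp53, the tumour suppressor whose loss all 4 models share. KP tumours (n = 18) have no further engineered loss, KB1P tumours (n = 31) also lose Brca1, KB2P tumours (n = 25) also lose Brca2, and KB1(L1363P)P tumours (n = 24) carry the Brca1 variant L1363P. The KB1P group, kept by its genotype label, includes 10 tumours titled KB1PM and 1 whose description names L1363P. Whether the KB1PM titles mark a separate model is unclear. KB1(L1363P)P held 12 sarcomatoid tumours, 9 carcinosarcomas and 3 adenocarcinomas, and KP held 10, 2 and 6 of these. Of the KB1P tumours 29 were adenocarcinomas, 1 a carcinosarcoma and 1 sarcomatoid, and all 25 KB2P tumours were adenocarcinomas. A carcinosarcoma has both epithelial and mesenchymal parts, and the labels give each tumour's percent of epithelium. The spleens are non-tumour controls. Ages, treatments and whether tumours came from separate animals were not given in the sources used here, so p-values measure only the spread between samples.

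Each gene has a log2 ratio, a segment value (the ratio smoothed over the stretch of the genome it belongs to, also log2) and a whole-number copy score with 2 as neutral. High-level gain means a segment value of at least 1 here. A tumour is a mixture of cells, so fewer cells with a gain and fewer copies per cell cannot be told apart. Read depth is unknown. The precision of a gene's value can be read from the distance of its log2 ratio from its segment value, which over the 10 genes had a median of 0.06 in the 86 tumours without high-level gain of Met, 0.08 in the 12 with it and 0.02 in the spleens. The KB2P profiles of replicates 10 and 12 resembled each other most (Pearson r = 0.93 over log2 ratios), and the next pair of samples had r = 0.76.

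On GRCm38.p6, the assembly also called mm10, the 10 genes lie on chromosome 6 in this order, with other genes between some of them. Mdfic, which codes for a regulator of transcription factors, lies at chr6:15720566-15802169, and Tfec, a transcription factor of the Mitf family, at chr6:16830927-16898464. Cav2 (chr6:17281185-17289130) and Cav1 (chr6:17306335-17341328) code for caveolins, the coat proteins of small membrane pits. Met spans chr6:17463349-17573980. Capza2 (chr6:17637010-17666972) codes for a subunit of the protein that caps actin filaments, and St7 (chr6:17693901-17943023) was named for a proposed role in suppressing tumour growth. Wnt2 (chr6:17985474-18032772) codes for a secreted Wnt ligand, Asz1 (chr6:18050964-18109061) for a germ-cell protein and Cftr (chr6:18170687-18322770) for an epithelial chloride channel.

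Met was at high-level gain in 12 tumours, 7 of KB1(L1363P)P and 5 of KP. Their segment values ran from 3.25 to 5.44 with a median of 4.25, and their copy scores from 19 to 87. No tumour lay between 0.85 and 3.25. Just under the threshold came KB1P replicate 23, titled KB1PM, at 0.85. Just above the threshold came KB1(L1363P)P replicate 15 at 3.25. The plot of Met by genotype and histology shows this gap. In the 3 spleens the segment value of Met was 0.00 ± 0.00 (SD, n = 3).

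**Figure D1:**
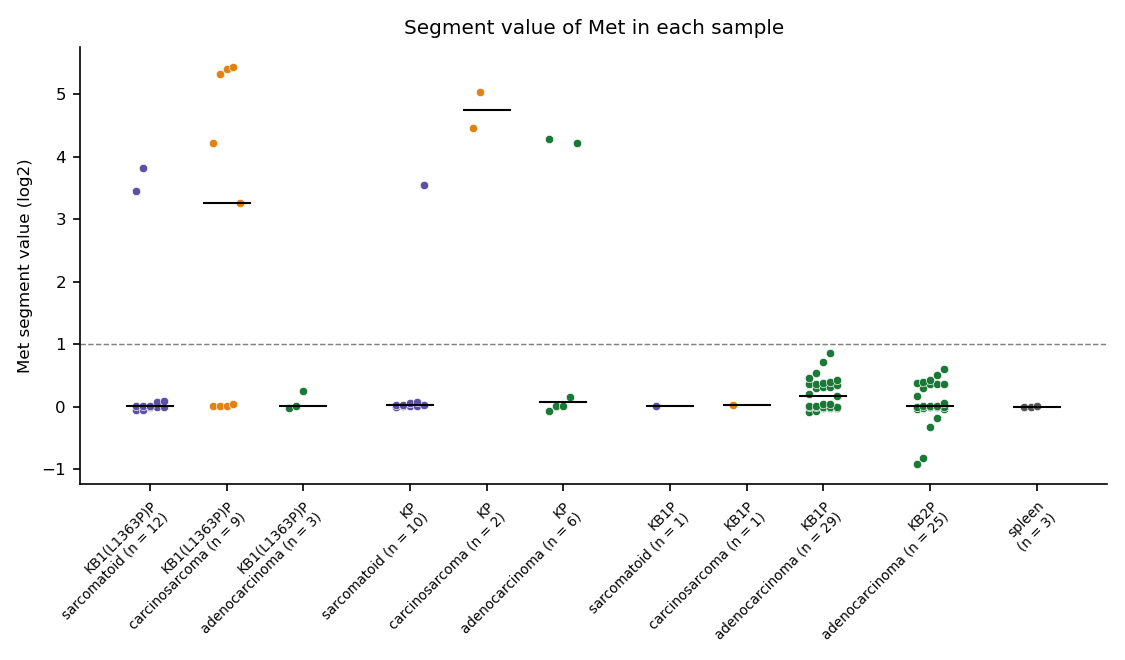
Segment value of Met (log2, vertical axis) in every sample, by genotype and histology; each point is a sample, the short lines are medians and the dashed line is the threshold of 1. The 12 amplified tumours sit between 3.25 and 5.44, all in KB1(L1363P)P and KP, while the highest KB1P tumour is at 0.85.

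Among the KB1(L1363P)P tumours Met ran from -0.06 to 5.44, with a median of 0.01 and a mean of 1.30 ± 2.10 (SD, n = 24). Values in KP ran from -0.08 to 5.04, with a median of 0.02 and a mean of 1.21 ± 1.99 (SD, n = 18). In both genotypes the median tumour was near neutral and the mean was carried by the amplified tumours. Tumours of KB1P ran from -0.10 to 0.85, with a median of 0.04 and a mean of 0.19 ± 0.24 (SD, n = 31). Among KB2P tumours the range was -0.92 to 0.60, with a median of 0.00 and a mean of 0.06 ± 0.36 (SD, n = 25). The 4 ranges overlapped near 0, and above 1 only KB1(L1363P)P and KP had tumours.

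The amplicon, the stretch of raised values around Met, was read gene by gene in the 12 tumours. Cav2, Cav1, Met, Capza2, St7, Wnt2, Asz1 and Cftr were at high-level gain in all 12. Tfec was so in 10 and Mdfic in 7. Outside these 12 tumours none of the 10 genes reached 1 in any sample, so choosing tumours by any of the 8 genes shared by all would give the same 12. All 10 genes sat on 1 shared segment value (within 0.001) in the 17 other KB1(L1363P)P tumours, the 13 other KP tumours, 29 of 31 KB1P tumours and 24 of 25 KB2P tumours.

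With a threshold of 2 the genes shared by all 12 tumours narrowed to 9 placed genes over 0.694 Mb, from Met to the pseudogene Gm15596. Of the members, Met, Capza2, St7, Wnt2 and Asz1 remained. With a threshold of 3, chosen after the values were seen, Met was the only placed gene of chromosome 6 in all 12. Cav1 and Cav2 were then in 11, Capza2 and St7 in 11, Wnt2 in 10, Asz1, Cftr and Tfec in 9, and Mdfic in 3. The tumours were selected by Met itself, whose lowest value among them was 3.25, so its presence in all 12 follows from the choice, and the counts of its neighbours show where the edges fall.

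**Figure D2:**
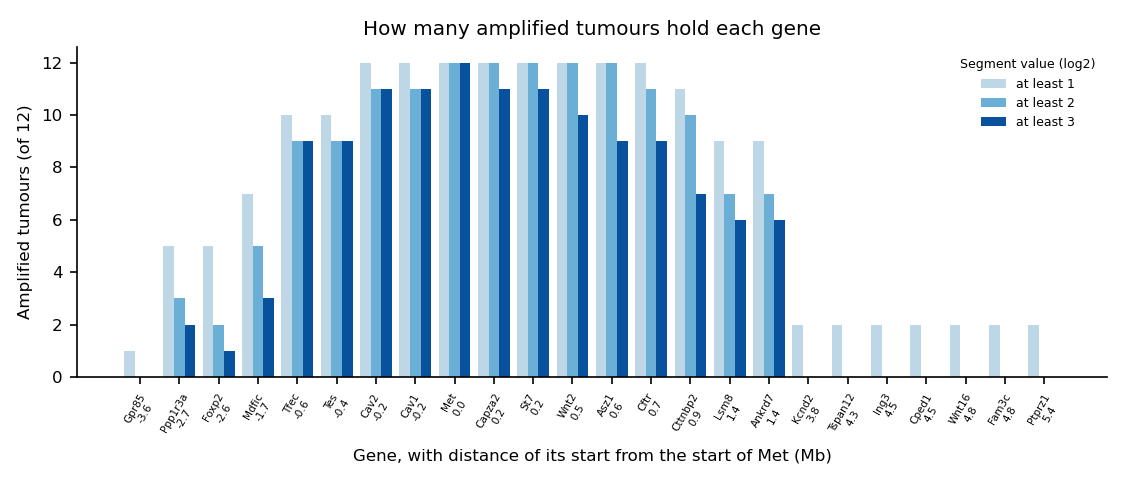
Number of the 12 amplified tumours (vertical axis) in which each member and flanking gene reached a segment value of at least 1, 2 or 3 (log2); genes stand in genomic order with the distance of their start from that of Met in Mb. Counts fall away on both sides of Met, to 7 for Mdfic and 9 for Ankrd7 at a value of 1.

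The listed flanking genes were read in the same way. Tes, a gene of focal adhesions that lies between Tfec and Cav2, reached 1 in 10 of the 12 tumours. Left of Mdfic, Foxp2 and Ppp1r3a did so in 5 each. Gpr85, farther left, did so in 1. On the right, Cttnbp2 reached 1 in 11 tumours, Lsm8 and Ankrd7 in 9, and each of the 7 listed genes from Kcnd2 to Ptprz1 in 2. The unbroken run of genes at 1 or more around Met measured 1.60 Mb in KP replicate 6, the shortest, and 15.1 Mb in KB1(L1363P)P replicate 15, the longest, with a median of 3.60 Mb.

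The 12 profiles differed in shape, and in most of them Met lay on a plateau with its neighbours. Its segment value was shared by Cav1, Cav2 and Capza2 in 11 tumours each, by St7 in 10, by Wnt2 and Asz1 in 9, by Cftr in 8, by Tfec in 7 and by Mdfic in 1. The same value in 2 genes means that no step was placed between them, so such genes are not separate observations. No other symbol in the table had the segment value of Met in all samples.

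KB1(L1363P)P replicate 5, a carcinosarcoma, had a step directly left of Met. Mdfic, Tfec, Cav2 and Cav1 were at 1.65 there, and Met and the 5 genes to its right at 5.44, the highest value of Met in the series. A step directly right of Met was seen in replicate 22 of the same genotype, also a carcinosarcoma. Tfec, Cav2, Cav1 and Met were at 4.22 in it, Capza2, St7, Wnt2 and Asz1 at 2.59, and Cftr again at 4.53. Met and Cftr were thus the only members on the high level in both tumours.

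KP replicates 6 and 8 had their left edge at the caveolin genes. In replicate 6, a carcinosarcoma, Tfec was at 0.41 and Cav2 to Cftr at 5.04, and in replicate 8, an adenocarcinoma, Tfec was at 0.26 and Cav2 to Cftr at 4.28. Replicate 6 had a further high stretch on the left, with Ppp1r3a at 4.25 between Gpr85 at 0.28 and Foxp2 at 0.36. The log2 ratios showed detail that the segments had smoothed away. Cav2 had a log2 ratio of 3.69 in replicate 6 against 5.66 for Cav1, and in replicate 8 the log2 ratio declined from 5.00 at Met to 2.96 at Cftr within a single segment value.

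KP replicate 3, a carcinosarcoma, had the plainest block. All 10 genes were at 4.47 over 3.61 Mb, with -0.86 at the next placed gene on the left and -0.84 on the right. KP replicate 1, an adenocarcinoma, had Mdfic at 4.60, above Met and the other 8 genes at 4.22. It was the only amplified tumour with Mdfic above Met.

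Among the 3 amplified sarcomatoid tumours, KB1(L1363P)P replicate 6 had Tfec to Cftr at 3.82 and Mdfic at 0.94. Replicate 16 was at 3.45 from Tfec to St7 and at 2.77 at Asz1 and Cftr, with Wnt2 midway between these levels at 3.11. In KP replicate 14 Mdfic was at 2.67, Tfec to Capza2 at 3.54, St7 at 3.13 and Wnt2 to Cftr at 2.32. KB1(L1363P)P replicate 15, a carcinosarcoma, had Tfec to Asz1 at 3.25, Cftr at 1.85 and Mdfic at -0.04. Right of Met, KB1(L1363P)P replicate 16, KP replicate 14 and KB1(L1363P)P replicate 15 thus stepped down at different genes, first at Wnt2, St7 and Cftr. In each case that gene lay between the levels on its 2 sides (Cttnbp2, right of Cftr, was at 1.38 in KB1(L1363P)P replicate 15). A gene that spans a step could have such a value, so these values need not be levels of their own. The counts at thresholds of 2 and 3 used them as they are.

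**Figure D3:**
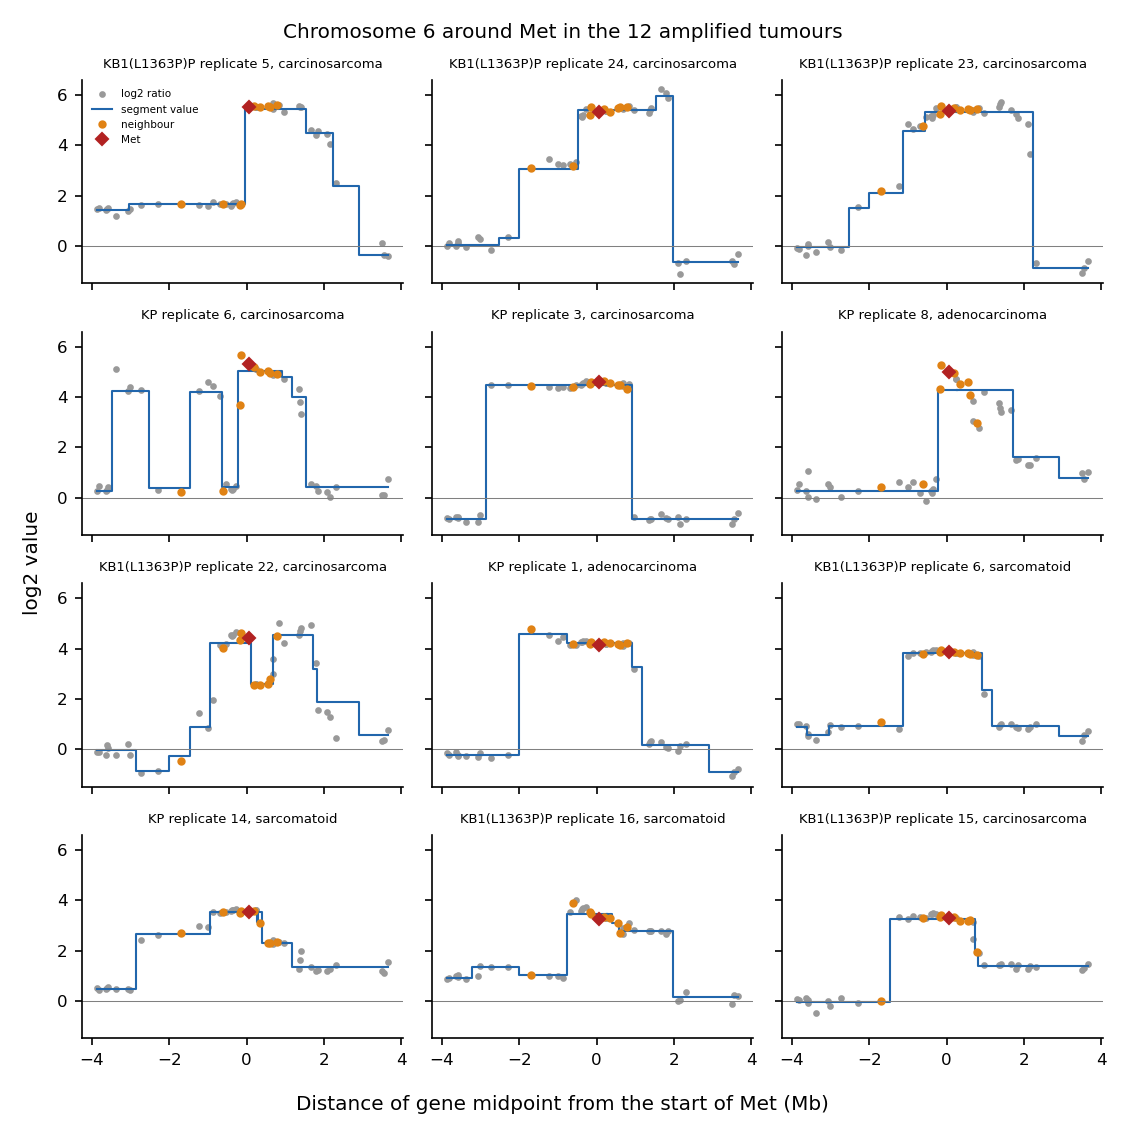
Log2 ratio (points) and segment value (line) of placed genes within 4 Mb of Met in the 12 amplified tumours, ordered by the segment value of Met, against the distance of each gene's midpoint from the start of Met in Mb; Met is a diamond and the other members are coloured points. Steps directly at Met are seen on its left in KB1(L1363P)P replicate 5 (1.65 to 5.44) and on its right in replicate 22 (4.22 to 2.59).

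KB1(L1363P)P replicates 23 and 24 carry the same tumour number in their titles, and the labels do not say whether they share an animal. Both were amplified, with Met at 5.32 and 5.41. Their left sides differed, since Mdfic and Tfec were at 2.11 and 4.56 in replicate 23 and both at 3.08 in replicate 24. Another such pair held the sarcomatoid replicate 6 with Met at 3.82 and the adenocarcinoma replicate 7 with Met at 0.01. Neither tumour of the third such pair, replicates 18 and 19, was amplified.

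In each amplified tumour the high peak at Met was local to its stretch of chromosome 6. Met exceeded the median segment value of the chromosome by 3.19 to 5.51, while that median itself ran from -0.50 to 0.33. At Met the other 30 tumours of KB1(L1363P)P and KP lay within 0.1 of that median. Lower gain reached farther in some amplified tumours. Genes at 0.58 or more ran unbroken around Met over 46.3 Mb in KB1(L1363P)P replicate 15 and 63.5 Mb in KP replicate 8. In KP replicate 6 the chromosome median, 0.33, was itself at the level of a gain call.

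KB1P and KB2P tumours had lower changes at Met, without such a high peak. The deposited copy score called a gain of Met in 10 of 31 KB1P tumours, with a highest score of 4, and in 8 of 25 KB2P tumours. A chromosome 6 median of at least 0.32, the level of a gain call, was found in 14 KB1P tumours. Met was called gained in 7 of these and lay under 0.1 in the other 7, for example at 0.01 in replicate 13 against a chromosome median of 0.90. In KB2P the median reached 0.32 in 10 tumours, of which 6 had a gain call at Met and 2 lay under 0.1. Broad gain of chromosome 6 therefore left out the Met stretch in some tumours of both genotypes.

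**Figure D4:**
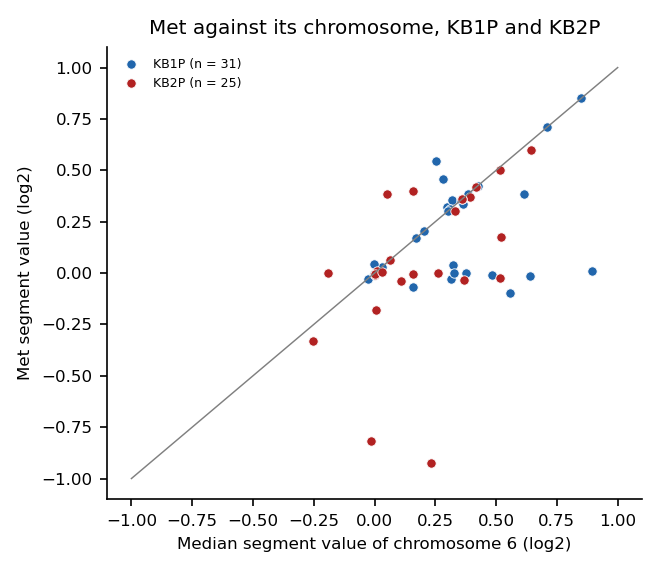
Segment value of Met (log2) against the median segment value of all placed genes of chromosome 6 (log2) in KB1P and KB2P tumours; each point is a tumour and the line marks equal values. Several tumours with a raised chromosome have Met near 0, and 2 KB2P tumours have Met at -0.82 and -0.92.

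Loss of Met was called in 2 tumours, both KB2P. Replicate 14 had Met at -0.82 in a run of values at or below -0.5 that spanned 26.0 Mb and 183 placed genes. Replicate 16 had Met at -0.92 in a run of 6.61 Mb and 48 placed genes whose right end was Cttnbp2. All 10 genes had the value of Met in both tumours.

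Adenocarcinomas of KB1P and KB2P were compared for the members, since both groups hold many tumours of 1 histology. The KB1P tumours had Met at 0.21 ± 0.25 (SD, n = 29), and the KB2P tumours at 0.06 ± 0.36 (SD, n = 25). The difference was 0.14 (SE 0.09, limma adjusted p = 0.590; permutation p = 0.0971, 100000 resamples, two-sided), which is within the spread between tumours. None of the 10 genes was called, against 4 of 43513 genes in all (0.00919%), which were lower in KB1P. At an unadjusted p under 0.05 limma had 4533 genes, and Met was not one of them (p = 0.101). Library series is the name used here for the number that opens the sample names (the labels do not say what it marks). Among tumours that have one, KB1P and KB2P share no library series, and 11 of the 29 KB1P adenocarcinomas have none. Genotype and series therefore cannot be told apart.

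Within KB1(L1363P)P and KP, Met was on average higher in tumours with an epithelial part than in purely sarcomatoid ones. By the medians, only the carcinosarcomas lay above the sarcomatoid tumours, and the adenocarcinomas did not. Carcinosarcomas had the highest levels: the 11 of both genotypes ran from 0.00 to 5.44 with a median of 4.22, and 7 of them were amplified. The 9 adenocarcinomas ran from -0.08 to 4.28 with a median of 0.01, and 2 were amplified. The 22 sarcomatoid tumours ran from -0.06 to 3.82 with a median of 0.02, and 3 were amplified. Every histology held amplified and neutral tumours, so the groups overlapped throughout.

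With carcinosarcomas and adenocarcinomas as 1 class (n = 20) and genotype in the fit, Met was higher than in sarcomatoid tumours (n = 22) by 1.60 (SE 0.56, limma adjusted p = 0.0362; permutation within genotype p = 0.0103). Members called higher were 6 of 10, namely Met, Capza2 (1.52), St7 (1.54), Wnt2 (1.59), Asz1 (1.60) and Cftr (1.63), with adjusted p from 0.0341 to 0.0438. Over all genes limma called 19%, with 4.35% higher and 14.6% lower, and the median difference of all genes was -0.06 against 1.53 for the members. The 4 members on the left had differences of 1.42 for Cav1 and Cav2 (adjusted p = 0.0518), 0.81 for Tfec (0.189) and 0.63 for Mdfic (0.153), and were not called. That calls stopped between Met and Cav1 rests on KB1(L1363P)P replicate 5, the only 1 of these 42 tumours in which Cav1 and Met differed.

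This difference depended on the histologies and libraries included. Without adenocarcinomas it was 2.60 (SE 0.63, limma adjusted p = 0.00735), and all 10 members were called, against 15.9% of all genes called higher. Without carcinosarcomas it was 0.44 (SE 0.55, limma adjusted p = 0.583). All 12 sarcomatoid KB1(L1363P)P tumours belong to library series 5289 and all 10 sarcomatoid KP tumours to series 5750, whereas series 5490 holds only tumours with epithelium. High-level gain of Met was found in 6 of 23 tumours of series 5289, 5 of 9 of series 5490 and 1 of 10 of series 5750. Within series 5289 the difference was 0.52 (SE 0.76, limma adjusted p = 0.650), and with series as a block it was 1.01 (SE 0.79, limma adjusted p = 0.456). Both kept the direction and neither was called. With standard errors of this size, these fits can neither show nor exclude a difference within series, and histology and series cannot be fully told apart.

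Each genotype showed the same direction. In KB1(L1363P)P alone Met was higher with epithelium by 1.38 (permutation p = 0.0931) and in KP alone by 1.89 (permutation p = 0.0448). The difference between these differences was -0.50 (SE 1.14, limma adjusted p = 0.967). No gene was called for it (0%), while 1171 had an unadjusted p under 0.05. As a description, KB1(L1363P)P minus KP was 0.23 (SE 0.78) among sarcomatoid tumours and -0.27 (SE 0.83) among tumours with epithelium, both smaller than their standard errors.

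Counted as amplified or not, 9 of 20 tumours with epithelium and 3 of 22 sarcomatoid tumours had high-level gain of Met (Fisher's exact test, two-sided, p = 0.0400, adjusted over 3 sets of tumours 0.120). The counts were 5 of 12 and 2 of 12 in KB1(L1363P)P (p = 0.371, exact) and 4 of 8 and 1 of 10 in KP (p = 0.118, exact). Carcinosarcomas against sarcomatoid tumours gave 7 of 11 and 3 of 22 (p = 0.00592, exact, adjusted 0.0177), in a comparison added after the values were seen. Library series limits these counts. Within series 5289, 4 of 11 tumours with epithelium and 2 of 12 sarcomatoid tumours were amplified (Fisher's exact test, p = 0.371, adjusted 0.741). Amplified carcinosarcomas in that series were 2 of 6 in KB1(L1363P)P and 1 of 1 in KP. In series 5490, which holds no sarcomatoid tumour, they were 3 of 3 and 1 of 1.

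The share of epithelium gave a like picture. From 0 to 100% epithelium the fitted rise of Met was 1.92 (SE 0.59, limma adjusted p = 0.0140). Of the 10 members 8 were called higher, all but Tfec (1.01, adjusted p = 0.103) and Mdfic (0.72, adjusted p = 0.114), against 29.8% of all genes called in either direction and 5.01% called higher. In KB1(L1363P)P alone the rise was 2.01 (SE 0.82, limma adjusted p = 0.0720).

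Among carcinosarcomas, 7 of the 8 with at least 50% epithelium were amplified and 0 of the 3 below that. The 3 tumours below 50% had Met at 0.00, 0.02 and 0.04. The exception above 50% was KB1(L1363P)P replicate 17, with 95% epithelium and Met at 0.00. All 3 adenocarcinomas of KB1(L1363P)P, at -0.02, 0.01 and 0.25, were not amplified, so a high share of epithelium did not by itself go with the gain.

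**Figure D5:**
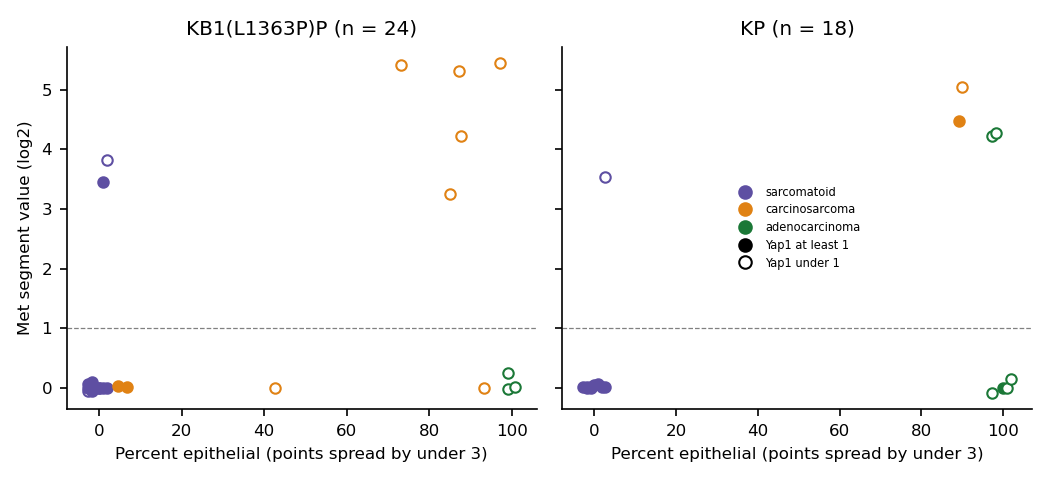
Segment value of Met (log2) against the percent of epithelium given in the labels, for KB1(L1363P)P (left) and KP (right); points are tumours coloured by histology, filled where Yap1 is at high-level gain, and shifted sideways by under 3 percent to part them. Amplified tumours at 75% epithelium or more are mostly carcinosarcomas, and only 2 of the 12 amplified points are filled.

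The height and width of the amplicon were compared between the 9 amplified tumours with epithelium and the 3 sarcomatoid ones. Met was at 4.63 ± 0.73 (SD, n = 9) and 3.60 ± 0.19 (SD, n = 3), a difference of 1.02 (exact permutation p = 0.0364, adjusted over 3 measures 0.109). KB1(L1363P)P replicate 15, a carcinosarcoma at 3.25, lay below all 3 sarcomatoid tumours, so the groups overlapped. The run around Met measured 5.01 ± 4.18 Mb (SD, n = 9) and 5.37 ± 3.55 Mb (SD, n = 3; exact permutation p = 0.745). The number of members at high-level gain was 9.33 ± 0.87 (SD, n = 9) and 9.67 ± 0.58 (SD, n = 3; exact permutation p = 0.891). With these group sizes the smallest p that can be reached is 0.0045.

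Yap1, a coactivator of the Hippo pathway on chromosome 9, is the other locus with frequent high-level gain in these genotypes. It was at high-level gain in 2 of the 12 tumours with amplified Met and in 21 of the 30 without (Fisher's exact test, two-sided, p = 0.00240, adjusted over 3 sets of tumours 0.00719). The 2 tumours with both were KP replicate 3, with Met at 4.47 and Yap1 at 4.14, and KB1(L1363P)P replicate 16, with 3.45 and 2.95. In KB1(L1363P)P the counts were 1 of 7 and 11 of 17 (p = 0.0686, exact, adjusted 0.0686), and in KP 1 of 5 and 10 of 13 (p = 0.0474, exact, adjusted 0.0686). With a threshold of 0.58 for both genes the KP counts were 2 of 5 and 10 of 13 (p = 0.268, exact, adjusted 0.268). Neither genotype alone therefore passed after adjustment.

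Yap1 differs strongly between the histology classes, being lower with epithelium by 3.02 (SE 0.50, limma adjusted p = 2.08e-05). The 2 loci were therefore also set side by side within each class, in a comparison added after the values were seen. Among sarcomatoid tumours Yap1 was at high-level gain in 1 of 3 with amplified Met and 18 of 19 without (Fisher's exact test, p = 0.0377, adjusted 0.113). Among tumours with epithelium the counts were 1 of 9 and 3 of 11 (Fisher's exact test, p = 0.591, adjusted 0.887). The pooled difference thus did not pass after adjustment within either class. Within library series 5289 the counts were 2 of 6 and 11 of 17 (Fisher's exact test, p = 0.341).

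The wider pathway was read from a list of 42 genes that code for the ligand, its activators, related receptors, adaptors and downstream kinases, of which 40 were measured (Spint1 and Akt1 were not in the table). Between tumours with epithelium and sarcomatoid tumours 5 of 40 were called lower and 0 higher, beside 14.6% of all genes lower. The median difference of the list, -0.06, was that of all genes. Those called lower included Hgf (-0.14, SE 0.05), the ligand itself, Hgfac (-0.15), a protease that activates it, and Gab1 (-0.22), the main docking adaptor of Met. Crkl, another adaptor, differed by -0.11. These shifts are differences of group means, which do not show how far single tumours went. Hgf and Hgfac each reached -0.86 among the amplified tumours. Both genes lie on chromosome 5, so their shifts need not be separate changes. By percent of epithelium 4 of 40, Hgf, Hgfac, Gab1 and Rap1a, were called lower, beside 24.8% of all genes. In neither fit was the list called lower at a share above that of all genes.

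In single tumours pathway genes reached larger values, mostly where Met was neutral. Nras, a Ras gene, was at 2.72 in KP replicate 7. Grb2, an adaptor, and Itgb4, an integrin that associates with Met, were both at 1.81 in KP replicate 4, and Pik3ca, a lipid kinase subunit, at 1.80 in KB1P replicate 21, where St14, a protease that activates the ligand, was at 1.33. At the low end Crkl was at -1.28 in KB1P replicate 29. Among the 12 amplified tumours the only pathway gene at 1 or more was Braf, a kinase gene also on chromosome 6, at 1.04 in KB1(L1363P)P replicate 15. None was at -1 or lower in them. The gene of the related receptor, Mst1r on chromosome 9, had a median of -0.29 in the amplified tumours and -0.07 in the other tumours. Mst1 and Plxnb1, listed genes of the same chromosome, also had a median of -0.29 in the amplified tumours, so this value was not particular to Mst1r. The other tumours include KB1P and KB2P, so genotype is mixed into this comparison, which was not tested.

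Genes most like Met over the 98 tumours were its own neighbours. Outside the members and the flanking list, the log2 ratios of the pseudogenes Gm13898 and Gm13899 (Pearson r = 0.99 each), Gm15593 (0.99), Gm15596 (0.98) and Gm15595 (0.98) followed it most closely, all within 0.83 Mb. Members correlated with Met by 0.98 to 0.99 for Capza2 to Cftr, 0.96 for Cav1 and Cav2, 0.84 for Tfec and 0.68 for Mdfic. On other chromosomes the highest values were 0.42 for Olfr1315-ps1 on chromosome 2, 0.40 for Gm26343 on chromosome 3 and 0.39 for Gm22545 on chromosome 8. These correlations rest largely on the 12 amplified tumours and on values that share bins and libraries, and are given as a description.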

How the data were processed

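Low-coverage sequencing of genomic DNA gave the data. The authors counted reads in 20-kb bins and corrected them for GC content and mappability, per the labels' protocols. The submitters' processing notes list build mm10 and the tools BWA 0.7.17, cutadapt 2.5, Picard and SAMtools 1.10, while the protocol text names a human build. The deposited log2 segment values, the deposited log2 ratios and the deposited whole-number copy score were used as they are. How the authors segmented the bins, chose a reference and assigned them to genes was not given in the sources used here. A gene's value is that of its stretch of bins, so genes in 1 segment share a value.

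Positions came from a RefSeq gene table (GRCm38.p6), which placed 32661 of 43513 symbols, 1796 of them on chromosome 6. Tumours were grouped by the labels. The tumour titled KB1P 47, whose description names the other model, and 10 titled KB1PM were kept as KB1P. Segment values were fitted over all genes with limma 3.58.1 in R 4.3.3 (Benjamini-Hochberg adjustment, threshold 0.05), with genotype as covariate where both were used. Single values were tested by permutation (100000 resamples, or exact) and counts by Fisher's exact test, in Python 3.11.15 with SciPy 1.17.1. As a check of the epithelium fit, histology classes were shuffled within genotype and a constant was added to 200 random genes. With a single shuffle for each constant, limma recovered 98.5% of them at 0.5 and 100% at 1. There were 0 other calls over 43513 genes. The shifted genes were drawn from the whole table, so these rates do not measure recovery or false calls at the 10 members.

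The members, lists and tests were chosen with earlier results of these data known. Named are all members, Yap1, pathway genes called or at extreme values (up to 8) and flanking genes at the edges. The genes most correlated with Met (5 on chromosome 6, 3 elsewhere) are also named. Mst1r was chosen after its values were seen, and Mst1 and Plxnb1 are given beside it. Alternatives covered the log2 ratio, centring, thresholds, limma's prior, library series, histology, uncertain labels and single tumours. The values of some listed pathway genes are not reported here.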

Additional observations from a re-analysis of the deposited data

Results flagged for a closer look

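In groups of 4 to 10 tumours, a value was singled out when its gap to the nearest other value was large against the range of the group, by Dixon's 95% limit, which chance passes in about 1 of 20 groups. Among the 10 sarcomatoid KP tumours replicate 14 stood apart at all 10 genes, with Mdfic at 2.67, Tfec, Cav2, Cav1, Met and Capza2 at 3.54, St7 at 3.13, and Wnt2, Asz1 and Cftr at 2.32. These 10 values describe 1 amplicon in 1 tumour. Among the 6 KP adenocarcinomas replicate 1 stood apart at Mdfic (4.60) and Tfec (4.22), the members that lay outside the amplicon of the other amplified adenocarcinoma, replicate 8.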

How the results depend on the processing

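No paired analysis was possible because replicate numbers only follow the order of the samples. The higher Met in tumours with epithelium (1.60) kept its direction under every alternative run, but lost its limma call with centring on the autosomal median (1.60, adjusted p = 0.0515) or the chromosome 6 median (1.60, 0.139), with values above 1 set to 1 (0.32, 0.0548), within series 5289 (0.52), with series as a block (1.01) and without carcinosarcomas (0.44). Leaving out each tumour gave 1.43 to 1.77, with adjusted p from 0.0206 to 0.0698 and the call lost in 10 of 42, on removal of KP replicates 1, 3, 6, 8 or 17 or KB1(L1363P)P replicates 5, 14, 22, 23 or 24. Genes called in that fit (8248, of which 1891 higher and 6357 lower) numbered 4806 with log2 ratios, 3623 with autosomal centring (1770 higher, 1853 lower), 1305 with chromosome 6 centring (0 higher, 1305 lower), 453 within series 5289, 2126 with series as a block, 18300 without adenocarcinomas and 1846 to 11969 with 1 tumour left out, the lowest without KB1(L1363P)P replicate 14. The rise with percent of epithelium was 2.01 in KB1(L1363P)P alone, without a call, where 6561 genes were called against 12951. For KB1P minus KB2P, 4 calls became 201 with log2 ratios (84 higher, 117 lower), 60 with autosomal centring and 655 with chromosome 6 centring, which moved the median of all genes from 0.03 to -0.11 and took Met to 0.00, Mdfic to -0.0092 and Tfec, Cav2, Capza2, St7, Wnt2, Asz1 and Cftr to just under 0 (-0.0031 for Tfec and Cav2, -0.0018 for the others). Without KB2P replicate 14 or 16 Met differed by 0.10 to 0.11. KB1(L1363P)P minus KP among tumours with epithelium became 0.057 for Met and 0.0088 for Cftr with series as a block. The gap in the share of amplified tumours, 31.4 percentage points, was 28.5 to 35.5 with 1 tumour left out, with unadjusted p from 0.0148 to 0.0753 and above 0.05 in 9 of 42, and 50 without adenocarcinomas (adjusted p = 0.0177). In KB1(L1363P)P it was -16.7 without carcinosarcomas. The Yap1 gap, -53.3, was -60.9 to -51.8 with 1 tumour left out, -31.4 within series 5289, -61.4 among sarcomatoid tumours and -16.2 among those with epithelium, and was 50 in KP within series 5289 (3 tumours) and 0 in KP tumours with epithelium. Without the second tumour of each title number it was -56.7 in KB1(L1363P)P and -56.9 in KP, both then at adjusted p = 0.0474. With 1 amplified tumour left out, the gap between classes was -0.67 to -0.17 in members, -2.02 to 1.51 Mb in run length and 0.92 to 1.19 in Met, and the run length gap was 6.80 Mb at a threshold of 0.58. Members shared by all 12 tumours fell from 8 to 5 at a threshold of 2 and to 1 at 3. Unless stated, the cause was not tested. Depth is unknown and sets no limit that could be computed.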
